A study of Mus musculus with 16 samples.

Results

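Respiratory complex I is represented here by the genes of the *Nduf* family, taken as every gene of the count table whose symbol begins with Nduf and is not named as a pseudogene. This gave 45 of the 46078 genes in the table. Of these, 38 carry subunit names and 7 are the assembly factors *Ndufaf1* to *Ndufaf7*. The 38 are called subunit genes below. They include *Ndufa4*, although its product belongs to cytochrome c oxidase, and its paralog *Ndufa4l2*. The duplicate loci *Ndufb4b* and *Ndufb4c* and the assembly factor *Ndufaf8* were not analysed here. Transcripts were measured in bulk RNA of mouse hematopoietic stem cells (HSCs) of the B6.SJL strain, labelled wild type, whose age is not given in the sources used here. Live LSK SLAM HSCs, that is, cells without lineage markers or CD48 that carry cKIT, SCA1 and CD150, were isolated by flow cytometry after enrichment of marrow for cKIT, and divided by their surface level of MAC-1, the integrin whose CD11B chain is encoded by *Itgam*. Steady-state (SS) HSCs came from untreated mice and formed 2 populations, SS MAC-1- (n = 3) and SS MAC-1 low (n = 3). HSCs of regenerating marrow came from recipients that had been irradiated with 900 cGy and given 8000 LSK cells 4 weeks before, and formed 3 populations, 4 week MAC-1- (n = 3), 4 week MAC-1 low (n = 4) and 4 week MAC-1+ (n = 3). The labels number the replicates of a population without saying whether they came from separate mice, so that each p-value measures the spread between these samples, which may be technical. In bulk RNA a smaller share of cells that express a gene and less RNA of it per cell cannot be told apart.

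Complex I is the entry point of electrons from NADH into the respiratory chain of the inner mitochondrial membrane. Its matrix arm binds NADH and passes electrons through a flavin and a chain of iron-sulfur clusters to ubiquinone, and its membrane arm pumps protons. The core subunits carry this chemistry and are shared with bacteria, the accessory subunits surround and stabilise them, and assembly factors build the complex in modules without staying in it. Most subunits are encoded in the nucleus, and the core subunits of the membrane arm are encoded in mitochondrial DNA. HSCs at rest are known for a low dependence on respiration and for mitochondria that become more active when the cells enter cycle.

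Promoter sequence was available from RefSeq (build GRCm38.p6, from 250 bases before to 50 bases after the annotated start) for 39 of the 45 genes. Genes with no entry included *Ndufa2*, *Ndufa4l2*, *Ndufaf6*, *Ndufb9* and *Ndufs1*. Each promoter was searched on both strands for exact matches to short motifs of factors known to act on respiratory genes. CGCATGCG, the inner part of the NRF1 motif, was present in 4 of the 39 promoters (10.3%) and in 1.87% of all 32851 promoters. AAGATGGCG, the motif of YY1, was present in 5 of 39 (12.8%) and in 1.4% of all promoters. CCGGAAGT, bound by ETS factors such as GABPA, was present in 1 of 39 (2.56%) against 3.89% of all, and TCAAGGTCA, the ESRRA motif, in 0 of 39 against 0.423%. No promoter held more than 1 of these motifs. CGCATGCG lay before *Ndufa8*, *Ndufa11*, *Ndufaf4* and *Ndufaf5* or within their first bases, and AAGATGGCG was found in *Ndufa9*, *Ndufc1*, *Ndufs4*, *Ndufs6* and *Ndufs7*. The windows printed next are shown because they belong to 4 genes that were lower in 4 week MAC-1+ than in SS MAC-1- HSCs, and each is written 5′ to 3′ on the strand of the gene with the match in capitals. They lie at chr2:36049330-36049357 (minus strand, *Ndufa8*), chr17:56717693-56717720 (plus strand, *Ndufa11*), chr10:80249463-80249491 (plus strand, *Ndufs7*) and chr2:90904704-90904731 (minus strand, *Ndufs3*).
Ndufa8, NRF1 motif: tcgctggagaCGCATGCGcagatggtac
Ndufa11, NRF1 motif: ctgcactgcgCGCATGCGcgcacgcctt
Ndufs7, YY1 motif: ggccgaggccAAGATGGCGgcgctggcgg
Ndufs3, ETS motif on the opposite strand: gcacatttccACTTCCGGtccgtgccct
Matches were also held by *Ndufa9*, *Ndufc1*, *Ndufs4*, *Ndufs6*, *Ndufaf4* and *Ndufaf5*. None of these was among the 17 of 44 tested members (38.6%) called lower in 4 week MAC-1+ than in SS MAC-1- HSCs. A match is a description of the letters only, and the data hold no measurement of the binding of these factors.

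The 16 libraries held 13781278 to 28580658 counts, and 3 counts, taken as the detection floor, corresponded to 0.105 to 0.218 CPM, the unit of all levels given here (counts of a gene scaled to a common library size). *Itgam* was at 0 to 0.262 CPM in SS MAC-1-, 0.773 to 1.57 CPM in SS MAC-1 low, 0 to 1.78 CPM in 4 week MAC-1-, 0.112 to 4.36 CPM in 4 week MAC-1 low and 3.80 to 30 CPM in 4 week MAC-1+ HSCs. The MAC-1 low samples overlapped both of the other 4 week populations, and in MAC-1+ against MAC-1- HSCs at 4 weeks it did not pass (log2 fold change 4.54 ± 2.23, adjusted p = 0.4), so that the transcript is a weak check of the sort. All 7 HSC markers examined, among them *Procr*, *Slamf1*, *Kit*, *Ly6a*, *Hlf* and *Mecom*, were detected in every sample. Mitochondrial genes took 3.96% to 9.62% of counts, and the highest shares within the 4 week populations were those of the replicates numbered 1 (9.15% in MAC-1-, 9.55% in MAC-1 low and 9.62% in MAC-1+). Results are therefore also given without these 3 libraries.

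Of the 38 subunit genes, 37 passed the filter on low counts, as did all 7 assembly factors, and 13661 genes were tested in all. The exception was *Ndufa4l2*, a paralog of *Ndufa4* that is known to be induced by hypoxia, which was listed at 0 counts in 15 samples and at 2 counts in 4 week MAC-1- replicate 2. The mean level of a subunit gene over the 16 samples ran from 48.1 to 2349 CPM with a median of 423 CPM, and none of the 37 was at 0 in any sample. Assembly factor genes were lower, at 28.7 to 169 CPM with a median of 64.3 CPM. Per kilobase of transcript the highest mean levels were those of *Ndufa4* (5106 CPM per kb), *Ndufa1* (1833) and *Ndufa7* (1721), and low levels among the subunits were those of *Ndufv1* (33.5) and *Ndufa10* (84.6). The median coefficient of variation within a population was 16.9% for subunit genes and 33.9% for assembly factor genes, and the highest sample exceeded the lowest by as little as 1.73-fold for a subunit gene and by as much as 406-fold for *Ndufaf5*.

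The members lie on 16 chromosomes, with at most 6 on one of them (chromosome 17). Of the 45, 16 share exon bases with another gene of the table in GENCODE M21, mostly on the opposite strand. The library kit does not mark strand, so reads of such bases cannot be assigned to one gene of the pair. The shared part exceeded 20% of the exon bases for *Ndufb6* (39.0%, with *Smim27*) and *Ndufa13* (29.98%, with *Tssk6*), and the levels of these genes are uncertain to that extent. The same holds for *Ndufaf2*, of which 65.6% of exon bases lie opposite *B230220B15Rik*, a gene that was not analysed here.

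Summed over the 37 tested subunit genes, transcripts were highest in both MAC-1- populations and lowest in 4 week MAC-1+ HSCs. The sums include *Ndufa4*, whose population means ran from 1832 to 3234 CPM. The summed level was 21262, 20223 and 20402 CPM in SS MAC-1- and 17768, 16757 and 18400.1 CPM in SS MAC-1 low HSCs. After transplantation it was 20965, 22405 and 19172 CPM in MAC-1-, 13941, 17396, 15089 and 16418 CPM in MAC-1 low, and 13647, 12074 and 11750.1 CPM in MAC-1+ HSCs. The 3 samples of 4 week MAC-1+ lay below all other samples, the 4 week MAC-1 low samples lay below all 4 week MAC-1- samples, and the SS MAC-1 low samples lay below all SS MAC-1- samples. As a share of all counts the subunit genes took 2.00% ± 0.11 (SD) in SS MAC-1- HSCs. For SS MAC-1 low HSCs the share was 1.88% ± 0.09. By this measure the SS populations overlapped, with MAC-1 low samples at 1.80% to 1.98% and MAC-1- samples at 1.89% to 2.10%. Their separation in summed CPM thus depended on the scaling of library sizes. At 4 weeks the share was 1.94% ± 0.11 (MAC-1-), 1.57% ± 0.17 (MAC-1 low) and 1.29% ± 0.02 (MAC-1+), without overlap. Gene by gene, the mean of 33 of the 37 subunit genes (89.2%) was lower in 4 week MAC-1 low than in MAC-1- HSCs and lower again in MAC-1+ HSCs, and none was higher at each step. Among all genes tested 23.0% had means that were lower at both steps. The 4 week MAC-1+ population had the lowest mean of the 5 populations for 29 of the 37 subunit genes, and the highest mean was found in SS MAC-1- for 20 and in 4 week MAC-1- for 15. Among assembly factors 4 of 7 had means lower at both steps, and *Ndufaf5* and *Ndufaf6* had their highest mean in 4 week MAC-1+ HSCs. Summed, they were at 698 ± 46.4 CPM in SS MAC-1-, 489.5 ± 78.4 in SS MAC-1 low, 622 ± 56.5 in 4 week MAC-1-, 468 ± 66.8 in 4 week MAC-1 low and 452 ± 14.2 in 4 week MAC-1+ HSCs.

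**Figure D1:**
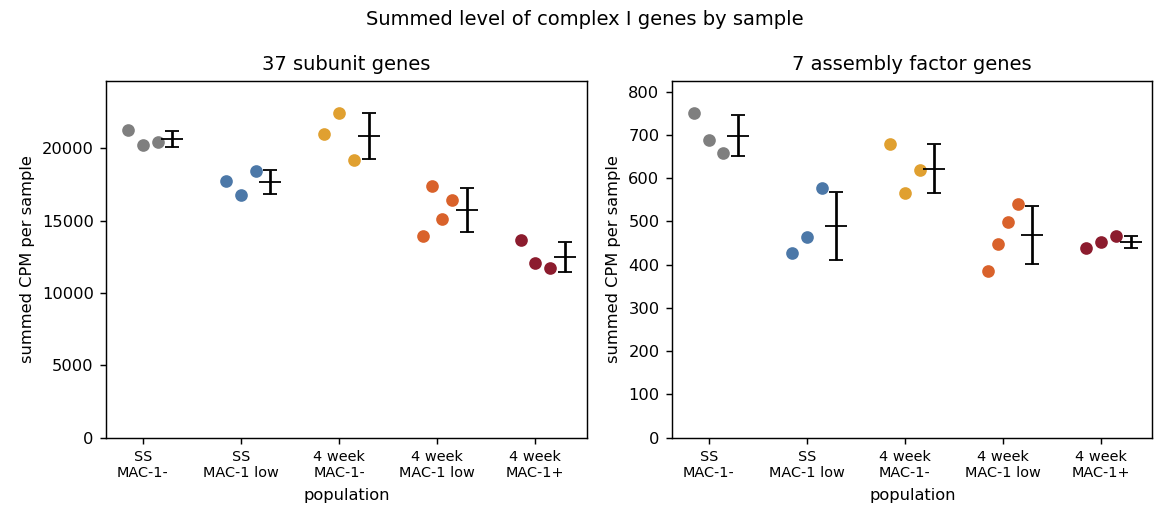
Summed CPM of the 37 tested subunit genes (left) and the 7 assembly factor genes (right) in each sample (points, coloured by population), with mean ± SD per population (black). The 3 samples of 4 week MAC-1+ HSCs have subunit sums of 11750.1 to 13647 CPM, below every other sample. Their assembly factor sums (438 to 466 CPM) lie below those of both MAC-1- populations and within the ranges of both MAC-1 low populations.

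**Figure D2:**
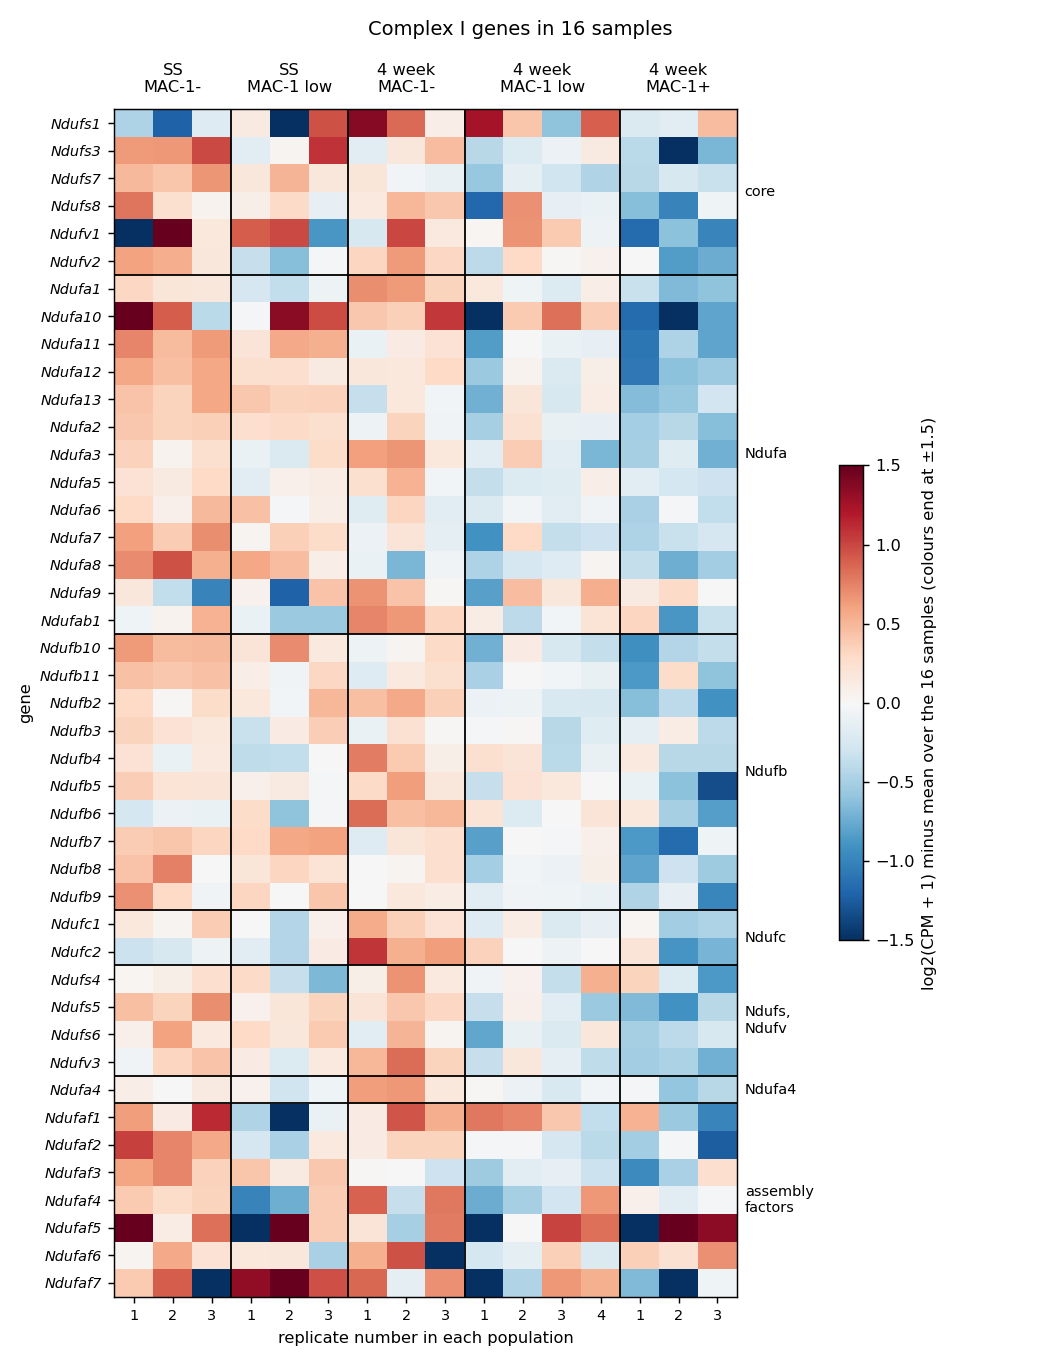
Level of 43 tested members in each of the 16 samples, as log2(CPM + 1) minus the mean of that gene over all samples, with genes grouped by role and samples by population (numbers are replicates). Blue cells fill most of the 4 week MAC-1+ columns over the 36 subunit rows, and the 7 assembly factor rows at the bottom are uneven from sample to sample.

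The first comparison, within regenerating marrow at 4 weeks, set HSCs that carried MAC-1 against those that lacked it. Of the 44 tested members 13 fell and none rose in MAC-1+ HSCs at an adjusted p below 0.1 (edgeR quasi-likelihood test, adjusted over all 13661 genes). That is 29.5% of the members, against 3.25% of all genes called in either direction and 2.06% called lower. All 13 carry subunit names, *Ndufa4* among them. The values after ± are standard errors (SE) for log2 fold changes and standard deviations (SD) for levels. Of the members, 26 had an unadjusted p below 0.05 and all 26 were lower in MAC-1+ HSCs, against 7.06% of all genes, and 26 had no overlap between the samples of both populations in that direction, against 11.5% of all genes. The median log2 fold change (MAC-1+ minus MAC-1-) of the 37 subunit genes was -0.72, compared with 0.07 over all genes tested. By class, calls were made for 1 of 7 core subunit genes, 4 of 13 accessory *Ndufa* genes, 3 of 10 *Ndufb* genes, both *Ndufc* genes, 2 of the 4 accessory *Ndufs* and *Ndufv* genes, *Ndufa4* and 0 of 7 assembly factor genes. DESeq2 called 16 members (of 1321 genes it called in all) and limma-voom 17 (of 866). With a log2 fold change beyond 1 required as well, 4 of the 13 were left (*Ndufa1*, *Ndufb2*, *Ndufc2* and *Ndufv3*), against 1.37% of all genes called lower by that rule.

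Among the accessory subunits of the membrane arm, *Ndufa1*, an X-linked gene (chrX:37187588-37191163, minus strand, GRCm38) whose product is needed for the membrane arm to form, differed with the smallest p of all members. *Ndufa1* was at 1199, 1152 and 935 CPM in 4 week MAC-1-, at 830.4, 708, 641 and 793 CPM in MAC-1 low and at 586, 467 and 486 CPM in MAC-1+ HSCs. Each step was without overlap, and MAC-1+ was lower than MAC-1- (log2 fold change -1.09 ± 0.15, adjusted p = 0.00186). In SS HSCs *Ndufa1* was at 916, 839.6 and 837 CPM in MAC-1- and 620.3, 574 and 704 CPM in MAC-1 low samples, between the extremes of the 4 week populations. *Ndufb2*, a small subunit of the distal membrane arm (chr6:39592574-39603382, plus strand), was at 436, 474 and 409 CPM in 4 week MAC-1-, 301, 303, 272 and 269 CPM in MAC-1 low and 205, 242 and 169 CPM in MAC-1+ HSCs (log2 fold change -1.10 ± 0.18, adjusted p = 0.00563 for MAC-1+ against MAC-1-). Again the 3 populations did not overlap. In SS HSCs *Ndufb2* was at 393, 322 and 386 CPM (MAC-1-) and 355, 311 and 451 CPM (MAC-1 low), and these ranges overlapped.

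*Ndufc2*, which is required early in the assembly of the membrane arm (chr7:97400003-97407802, plus strand), differed between replicates. Its level was 1287, 886 and 951 CPM in 4 week MAC-1-, 780.3, 613, 582 and 616 CPM in MAC-1 low and 700.3, 332 and 377 CPM in MAC-1+ HSCs. In each of these populations replicate 1, the library with the highest mitochondrial share, was the highest. MAC-1+ was lower than MAC-1- (log2 fold change -1.15 ± 0.25, adjusted p = 0.0295). The call was lost without 4 week MAC-1- replicate 1 (adjusted p = 0.136), MAC-1+ replicate 2 (adjusted p = 0.139) or MAC-1+ replicate 3 (adjusted p = 0.146), all by edgeR, in a range of 0.00279 to 0.146 over the 16 fits that each left out 1 sample. Its partner *Ndufc1* was at 713 ± 84.0 CPM in MAC-1- and 446 ± 97.2 CPM (mean ± SD, n = 3 each) in MAC-1+ HSCs (log2 fold change -0.68 ± 0.19, adjusted p = 0.0912). The remaining called subunits of the membrane arm were *Ndufb5* (622 ± 105 and 317 ± 128 CPM, log2 fold change -0.97 ± 0.25, adjusted p = 0.0608), *Ndufb6* (697 ± 106 and 364 ± 130.1 CPM, log2 fold change -0.94 ± 0.25, adjusted p = 0.078), *Ndufa3* (793 ± 143 and 412 ± 77.9 CPM, log2 fold change -0.94 ± 0.24, adjusted p = 0.0653), *Ndufa11* (437 ± 47.9 and 243 ± 52.2 CPM, log2 fold change -0.85 ± 0.22, adjusted p = 0.0668) and *Ndufs5* on its intermembrane face (132 ± 9.71 and 67.8 ± 11.8 CPM, log2 fold change -0.96 ± 0.25, adjusted p = 0.068), with MAC-1- given before MAC-1+.

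On the matrix arm, *Ndufv3*, an accessory subunit beside the NADH-binding site (chr17:31520115-31531331, plus strand), was at 353, 448 and 316 CPM in 4 week MAC-1-, 197, 281, 226 and 192 CPM in MAC-1 low and 174, 180.0 and 152 CPM in MAC-1+ HSCs. The MAC-1+ samples lay below all others, and MAC-1+ was lower than MAC-1- (log2 fold change -1.14 ± 0.21, adjusted p = 0.0109). *Ndufa12*, which joins the matrix arm late and is the paralog of the assembly factor *Ndufaf2* (chr10:94198720-94221443, plus strand), was at 764, 760.2 and 836 CPM in MAC-1-, 463, 708, 584 and 723 CPM in MAC-1 low and 323, 443 and 467 CPM in MAC-1+ HSCs (log2 fold change -0.94 ± 0.18, adjusted p = 0.0123 for MAC-1+ against MAC-1-). Here MAC-1 low and MAC-1+ overlapped through 1 low sample, MAC-1 low replicate 1. In SS HSCs *Ndufa12* was at 1018, 935 and 1022 CPM (MAC-1-) and 807, 809 and 749 CPM (MAC-1 low). The order of levels ran from SS MAC-1- downwards to 4 week MAC-1+ HSCs, and the middle places of MAC-1 low at steady state and MAC-1- at 4 weeks overlapped.

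**Figure D3:**
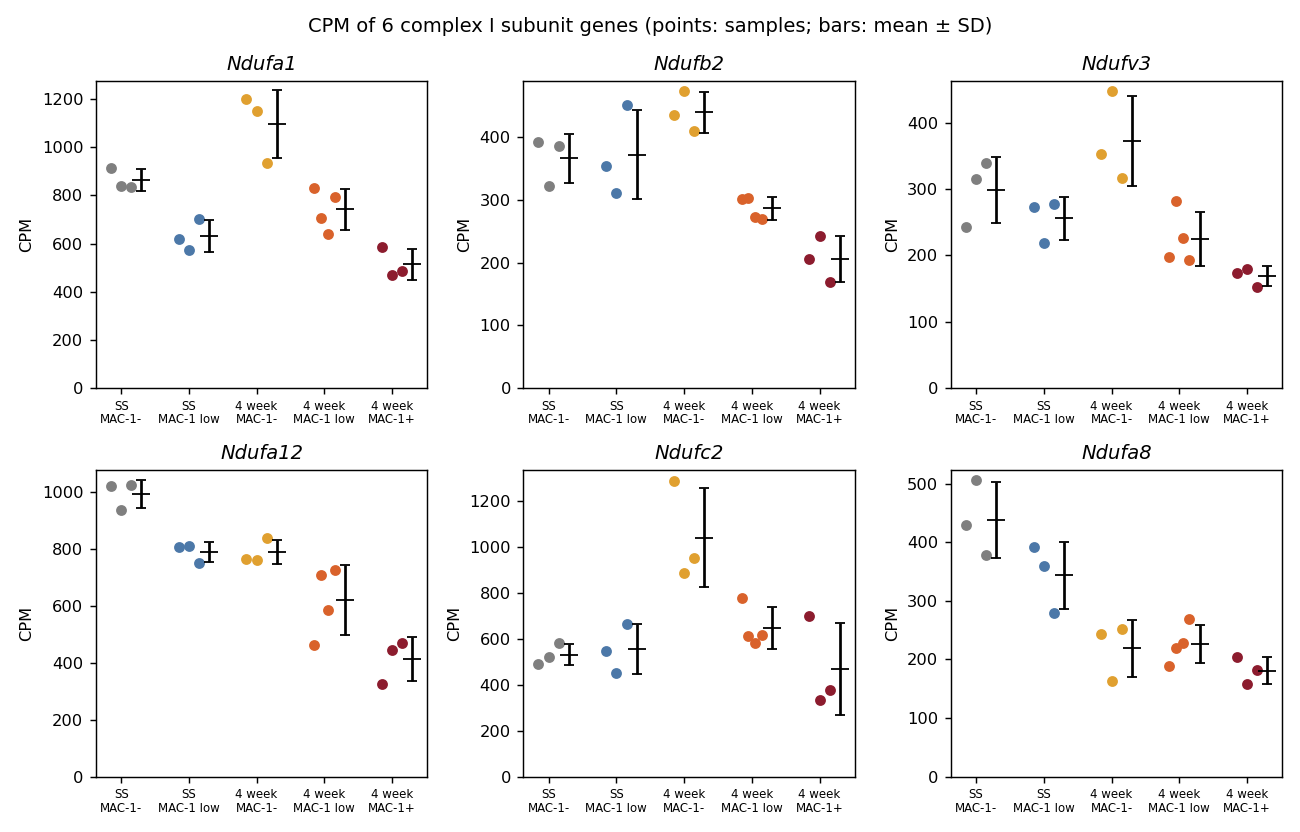
CPM of 6 subunit genes in every sample (points) with mean ± SD per population (black, n = 3 or 4), each axis starting at 0. *Ndufa1*, *Ndufb2* and *Ndufv3* are highest in 4 week MAC-1- and lowest in 4 week MAC-1+ HSCs, *Ndufa12* is highest in SS MAC-1- HSCs, *Ndufc2* is raised in the 3 samples of 4 week MAC-1- HSCs (886 to 1287 CPM), and *Ndufa8* is low in all 3 of the 4 week populations.

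Of the core subunits, some of which hold the flavin or the iron-sulfur clusters, 1 passed the test. This was *Ndufv2*, an iron-sulfur protein next to the flavin, at 1097, 1369 and 1088 CPM in 4 week MAC-1- and 885, 489 and 525 CPM in MAC-1+ HSCs (log2 fold change -0.90 ± 0.24, adjusted p = 0.0762). It was at 666, 1082, 889.7 and 915 CPM in MAC-1 low HSCs, which overlapped MAC-1+ HSCs. The other core genes did not pass. *Ndufs3* (log2 fold change -1.08 ± 0.41, adjusted p = 0.252), *Ndufs8* (-0.88 ± 0.36, 0.299), *Ndufs7* (-0.35 ± 0.18, 0.416) and *Ndufv1*, which binds NADH and the flavin (-1.34 ± 0.72, 0.445), had no overlap between samples in the direction of lower levels in MAC-1+ HSCs. *Ndufs1* (-0.82 ± 0.78, 0.762) overlapped.

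*Ndufa4*, which bears a complex I name but belongs to cytochrome c oxidase, was the most abundant member. It was at 3534, 3605 and 2561 CPM in 4 week MAC-1-, 2315, 2152, 1959 and 2232 CPM in MAC-1 low and 2255, 1528 and 1715 CPM in MAC-1+ HSCs (log2 fold change -0.82 ± 0.16, adjusted p = 0.0145 for MAC-1+ against MAC-1-), with MAC-1 low and MAC-1+ overlapping at the top of MAC-1+. Among accessory genes outside the calls, *Ndufab1*, the mitochondrial acyl carrier protein, was at 747 ± 107 CPM in MAC-1- and 432 ± 180.3 CPM in MAC-1+ HSCs (log2 fold change -0.79 ± 0.27, adjusted p = 0.197). *Ndufa13*, also known as GRIM-19, was at 465 ± 80.7 and 343 ± 47.2 CPM (log2 fold change -0.44 ± 0.21, adjusted p = 0.391). *Ndufa10*, a nucleoside kinase-like subunit, had the most negative estimate of all (log2 fold change -2.14 ± 0.79, adjusted p = 0.245), from 97.9, 95.0 and 155 CPM in MAC-1- and 32.6, 3.77 and 42.2 CPM in MAC-1+ HSCs. It did not pass the test although the samples did not overlap.

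None of the 7 assembly factors passed the edgeR test in this comparison, and 1 had an unadjusted p below 0.05. That gene was *Ndufaf2*, at 109, 126 and 127 CPM in MAC-1- and 69.3, 97.7 and 41.9 CPM in MAC-1+ HSCs (log2 fold change -0.79 ± 0.31, adjusted p = 0.271), without overlap. The rest overlapped between the populations. *Ndufaf3* and *Ndufaf4*, which act together on the arm that meets ubiquinone, had log2 fold changes of -0.22 ± 0.33 (adjusted p = 0.878) and -0.58 ± 0.42 (0.623). *Ndufaf1*, of the assembly complex of the membrane arm, was at -0.78 ± 0.67 (0.711), *Ndufaf5*, which modifies *Ndufs7* protein, at 0.79 ± 1.42 (0.915), *Ndufaf6* at 0.22 ± 0.66 (0.959) and *Ndufaf7*, a methyltransferase, at -1.42 ± 0.87 (0.528). With standard errors this wide, differences as large as those of the called subunits were not detectable for most assembly factors. Their median log2 fold change was -0.58. Subunits and assembly factors were not tested against each other.

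**Figure D4:**
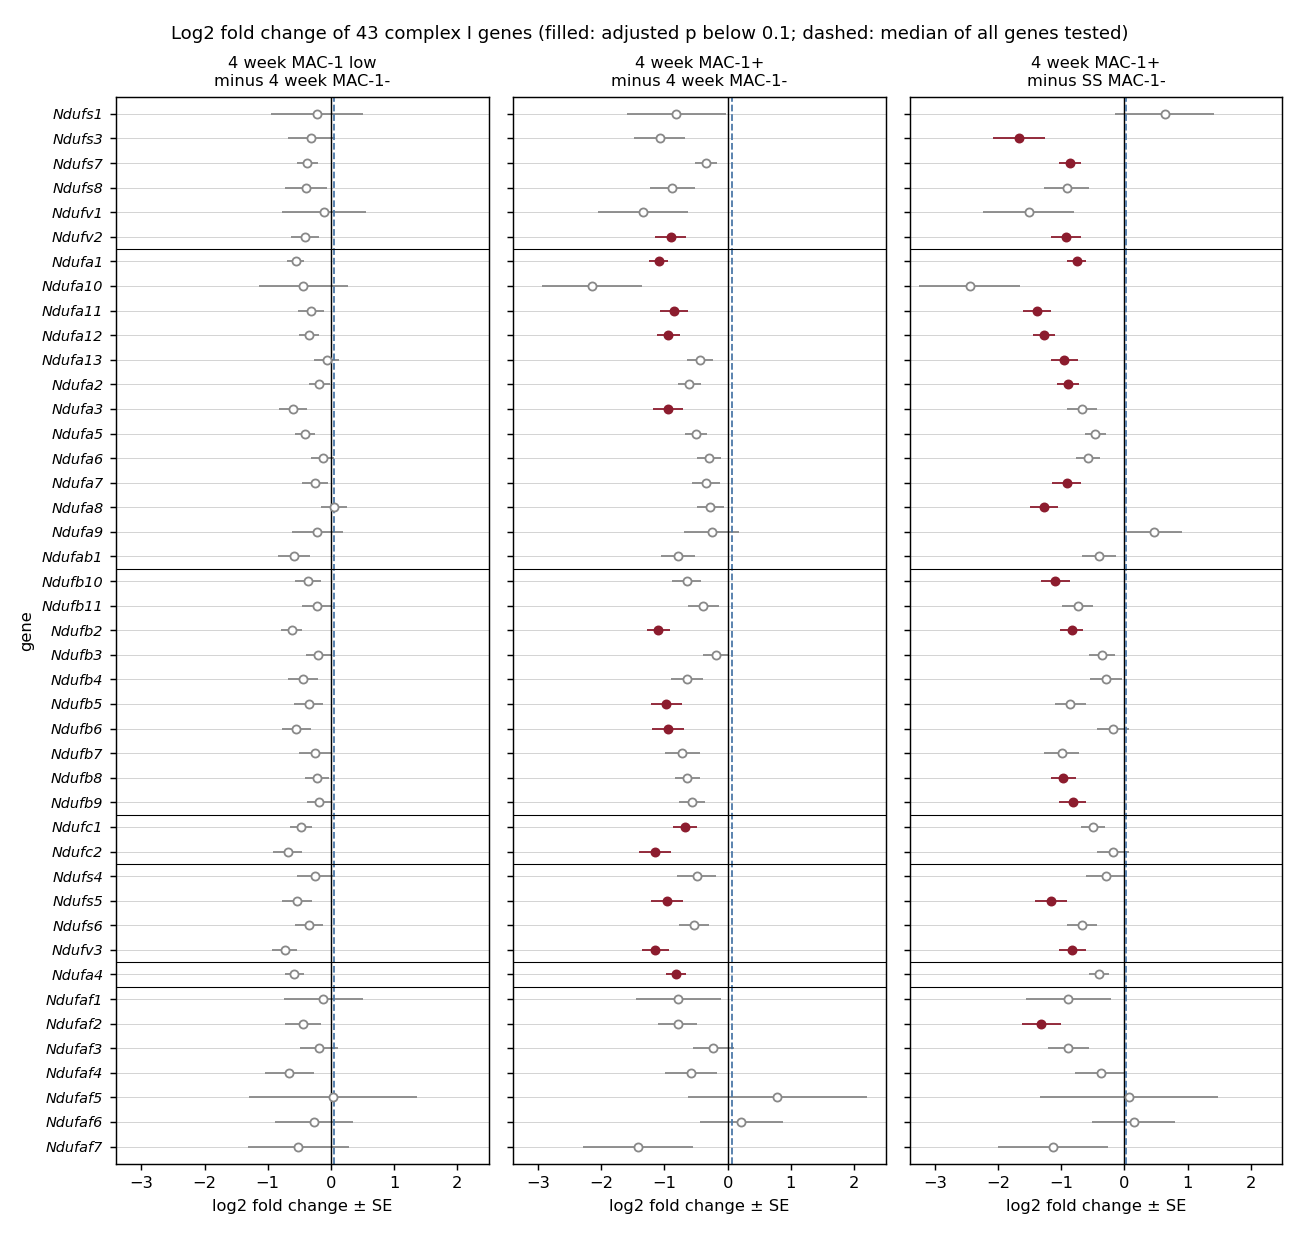
Log2 fold change ± SE of 43 tested members (rows, grouped by role) in 3 comparisons, with filled red points at an adjusted p below 0.1 and a dashed line at the median of all genes tested. Nearly all subunit genes lie left of 0 in each panel, and the number of filled points is 0 for 4 week MAC-1 low minus MAC-1-, 13 for 4 week MAC-1+ minus MAC-1- and 17 for 4 week MAC-1+ minus SS MAC-1-.

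The number of calls changed with the samples in the fit. *Ndufa1*, *Ndufb2*, *Ndufv3*, *Ndufa12* and *Ndufa4* were called in each of the 16 fits that left out 1 sample, with adjusted p of at most 0.013, 0.0337, 0.065, 0.0592 and 0.082. The total of 13 dropped to 5, 6 and 8 without 4 week MAC-1- replicates 1, 2 and 3, to 7 and 6 without MAC-1+ replicates 2 and 3, to 7 without MAC-1 low replicate 3 and to 8 without SS MAC-1 low replicate 1. Fitting the 6 samples of both populations alone left 2 calls, *Ndufa1* and *Ndufv3*. Leaving out replicate 1 of each 4 week population left 9 calls. Marker levels moved with the same contrast. Summed HSC markers were at 689 to 882 CPM in 4 week MAC-1- and 2237 to 3437 CPM in MAC-1+ HSCs, with 5 of 7 called higher (*Hlf*, *Kit*, *Ly6a*, *Mecom* and *Procr*). Summed megakaryocyte markers were at 4251 to 6744 CPM in MAC-1- and 156 to 198 CPM in MAC-1+ HSCs, with 3 of 6 called lower (*Gp1bb*, *Itga2b* and *Pf4*). Summed neutrophil markers were at 23.1 to 69.7 and at 164 to 7304 CPM (2 of 6 tested called higher, *S100a8* and *S100a9*; *Elane*, *Lcn2* and *Ltf* at 0 in all MAC-1- samples), and erythroid markers at 23.6 to 28.1 and 91.3 to 197 CPM (1 of 5 tested called higher, *Hbb-bt*). Monocyte and macrophage markers were at 0.188 to 8.49 and 21.9 to 125 CPM (0 of 1 tested called), with *C1qa* at 0 in both populations. T and NK cell markers were at 323 to 642 and 17.2 to 176 CPM (1 of 2 tested called lower, *Nkg7*), with *Cd3e*, *Cd3g* and *Klrd1* at 0 in both populations, and proliferation markers were at 1682 to 2221 and 941 to 1403 CPM with 0 of 8 called. The part of these in the result for complex I was not tested.

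The same MAC-1+ samples were next set against unperturbed HSCs without MAC-1, the SS MAC-1- population, so that both comparisons share the MAC-1+ samples. Here 17 of the 44 members fell and none rose, that is, 38.6% of the members against 2.36% of all genes called and 1.59% called lower. The median log2 fold change of the subunit genes was -0.82, compared with 0.02 over all genes. DESeq2 called 23 members (of 1414 genes in all) and limma-voom 13 (of 190). With a log2 fold change beyond 1 required as well, 7 of the 17 were left, against 0.966% of all genes called lower by that rule. The leading genes were other ones in part. *Ndufa12* came first (log2 fold change -1.27 ± 0.18, adjusted p = 0.00552), followed by *Ndufa11*, a membrane-arm subunit at 683, 571 and 641 CPM in SS MAC-1- and 194, 298 and 238 CPM in 4 week MAC-1+ samples (log2 fold change -1.38 ± 0.22, adjusted p = 0.00775). *Ndufa8*, on the intermembrane face (chr2:36036326-36049406, minus strand), was at 429.5, 506 and 377 CPM in SS MAC-1- and 204, 158 and 181 CPM in 4 week MAC-1+ samples (log2 fold change -1.27 ± 0.22, adjusted p = 0.0114). These 3 did not overlap between the populations.

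Of the core genes 3 fell in this comparison. *Ndufs7*, which carries the last iron-sulfur cluster before ubiquinone, was at 374, 357 and 423 CPM in SS MAC-1- and 199, 226 and 211 CPM in 4 week MAC-1+ samples (log2 fold change -0.86 ± 0.18, adjusted p = 0.0289). *Ndufs3* was at 170.2, 171 and 218 and 82.5, 25.7 and 67.8 CPM (log2 fold change -1.67 ± 0.41, adjusted p = 0.0714), and *Ndufv2* at 1338, 1278 and 988 and 885, 489 and 525 CPM (log2 fold change -0.92 ± 0.24, adjusted p = 0.0833). All 3 were separated between the populations. *Ndufs8* (-0.91 ± 0.36, adjusted p = 0.278), *Ndufv1* (-1.51 ± 0.72, 0.365) and *Ndufs1* (0.63 ± 0.78, 0.812) did not pass. The further accessory genes called were *Ndufa2* (log2 fold change -0.89 ± 0.18), *Ndufa1* (-0.75 ± 0.15), *Ndufa7* (-0.92 ± 0.23), *Ndufa13* (-0.95 ± 0.21), *Ndufb2* (-0.84 ± 0.18), *Ndufb8* (-0.97 ± 0.20), *Ndufb9* (-0.82 ± 0.21), *Ndufb10* (-1.09 ± 0.23), *Ndufs5* (-1.16 ± 0.25) and *Ndufv3* (-0.82 ± 0.21). *Ndufaf2* was the only *Ndufaf* gene called in any comparison, at 205, 167 and 148 CPM in SS MAC-1- and 69.3, 97.7 and 41.9 CPM in 4 week MAC-1+ samples (log2 fold change -1.31 ± 0.31, adjusted p = 0.0606). Its paralog *Ndufa12* was thus called in the same contrast. *Ndufc2* (-0.18 ± 0.25, 0.849), *Ndufb6* (-0.18 ± 0.25, 0.844) and *Ndufa4* (-0.40 ± 0.16, 0.277), called against 4 week MAC-1- HSCs, did not pass against SS MAC-1- HSCs.

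Called against both MAC-1- populations were 7 genes, *Ndufa1*, *Ndufa11*, *Ndufa12*, *Ndufb2*, *Ndufs5*, *Ndufv2* and *Ndufv3*, which is 53.8% of the 13 and 41.2% of the 17. Because both comparisons use the same MAC-1+ samples, shared calls are expected for any genes. The share of all genes called in both was not determined. *Ndufa12*, *Ndufa11*, *Ndufa8*, *Ndufa2*, *Ndufa1* and *Ndufs7* were called against SS MAC-1- HSCs in each of the 16 fits that left out 1 sample. The count of 17 dropped to 11 without SS MAC-1- replicate 1 or 2, to 10 without 4 week MAC-1+ replicate 1 and to 11 without replicate 3. It was 8 without replicate 1 of each 4 week population, 6 with an offset for gene length and GC content and 0 when only these 6 samples were fitted. For this contrast the summed HSC markers were at 1476 to 1723 CPM in SS MAC-1- and 2237 to 3437 CPM in MAC-1+ HSCs (1 of 7 called higher, *Ly6a*), megakaryocyte markers at 594.5 to 1097 and 156 to 198 CPM (*Gp1bb* and *Pf4* called lower), and proliferation markers at 892 to 1025 and 941 to 1403 CPM (0 of 8 called). Neutrophil markers were at 79.4 to 111 and 164 to 7304 CPM, with *Ngp*, *S100a8* and *S100a9* called higher and *Ltf* and *Ngp* at 0 in all SS MAC-1- samples. Erythroid markers were at 28.2 to 74.5 and 91.3 to 197 CPM (1 of 5 tested called higher, *Hbb-bt*), and T and NK cell markers at 221 to 379 and 17.2 to 176 CPM (0 of 2 tested called). Neither of these sums overlapped. Their part in the result was not tested.

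4 week MAC-1 low HSCs stood between the other two 4 week populations. Against 4 week MAC-1- no member was called by edgeR, where 0.278% of all genes were called, although 12 had an unadjusted p below 0.05, all lower in MAC-1 low (3.18% of all genes were). The median log2 fold change of the subunit genes was -0.35, compared with 0.05 over all genes, and DESeq2 called 4 members (of 410 genes in all) and limma-voom 7 (of 309). The smallest p belonged to *Ndufa1* (log2 fold change -0.56 ± 0.14, adjusted p = 0.197), *Ndufa4* (log2 fold change -0.58 ± 0.15, adjusted p = 0.224) and *Ndufv3* (log2 fold change -0.73 ± 0.19, adjusted p = 0.266). From MAC-1 low to MAC-1+ no member and 0% of all genes were called by edgeR, 9 members had an unadjusted p below 0.05, all lower in MAC-1+ (4.61% of all genes were), and the median of the subunit genes was -0.38, compared with 0.00 over all genes. *Ndufa1* (log2 fold change -0.53 ± 0.14, adjusted p = 0.535), *Ndufa12* (log2 fold change -0.59 ± 0.17, adjusted p = 0.535) and *Ndufb2* (log2 fold change -0.48 ± 0.17, adjusted p = 0.634) led. DESeq2 called 2 members (of 318 genes in all) and limma-voom 0 (of 1). Summed HSC markers were at 1471 to 2071 CPM and megakaryocyte markers at 346 to 868 CPM in 4 week MAC-1 low HSCs, both outside their ranges in 4 week MAC-1- and in MAC-1+ HSCs. Erythroid markers, at 35.5 to 59.8 CPM in MAC-1 low HSCs, also lay outside both ranges. Monocyte and macrophage markers (17.96 to 36.8 CPM) lay above those of MAC-1- HSCs, and neutrophil (38.4 to 148 CPM) and proliferation markers (1429 to 1696 CPM) were separated from those of MAC-1+ HSCs. The part of these markers was not tested. These 2 comparisons share the MAC-1 low samples, so that their fold changes are not independent.

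MAC-1- HSCs of the 4 week and the SS marrow overlapped in their sums of subunit transcripts, and 1 member was called, lower at 4 weeks. This was *Ndufa8*, against 0.432% of all genes. It fell from 429.5, 506 and 377 CPM in SS MAC-1- to 243, 163 and 251 CPM in 4 week MAC-1- samples (log2 fold change -0.999 ± 0.22, adjusted p = 0.0927) and stayed near that level in MAC-1 low (189, 219.7, 229 and 268 CPM) and MAC-1+ HSCs. The call was close to the threshold and was kept in 3 of the 16 fits that left out 1 sample. The next estimates were positive. *Ndufc2* was at 491, 520.3 and 581 CPM in SS MAC-1- HSCs, below each of the 4 week MAC-1- samples (log2 fold change 0.97 ± 0.25, adjusted p = 0.184). *Ndufb6* was at 381, 429 and 426 CPM in SS and 819.8, 627 and 645 CPM in 4 week MAC-1- samples (log2 fold change 0.76 ± 0.25, adjusted p = 0.352). Neither passed. *Ndufs7*, *Ndufa7*, *Ndufa11* and *Ndufa13* had estimates of -0.51 ± 0.18, -0.57 ± 0.23, -0.53 ± 0.22 and -0.51 ± 0.21 with unadjusted p of 0.0111, 0.0229, 0.029 and 0.0292, and none of the 4 overlapped. At an unadjusted p below 0.05, 5 of the 44 members were lower and 4 higher, against 664 (4.86%) and 763 of all 13661 genes. Without overlap, 12 members were lower and 6 higher, against 1011 (7.40%) and 1262 of all genes. The median over the subunit genes was -0.14, compared with -0.03 over all genes, and this median turned to 0.03 without 4 week MAC-1- replicate 1.

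Between these populations summed HSC markers did not overlap (1476 to 1723 CPM in SS, 689 to 882 CPM at 4 weeks, 3 of 7 called lower), nor did megakaryocyte markers (594.5 to 1097 and 4251 to 6744 CPM, 1 of 6 called higher, *Pf4*). Proliferation markers were at 892 to 1025 and 1682 to 2221 CPM with 0 of 8 called, neutrophil markers at 79.4 to 111 and 23.1 to 69.7 CPM with 0 of 6 called, erythroid markers at 28.2 to 74.5 and 23.6 to 28.1 CPM with 0 of 5 called, and B cell markers at 56.3 to 112 and 6.4 to 33.6 CPM with 0 of 1 called. None of these sums overlapped, and the part of the markers was not tested.

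The direction in the comparison of both MAC-1- populations went along with base composition. The 12 subunit genes with the lowest GC content of transcripts (43.9% to 49.5%) had a median log2 fold change of 0.30 and 10 of them were positive. The 13 with the highest GC content (54.0% to 60.4%) had a median of -0.31 and 2 of them were positive. The medians over all tested genes in the corresponding ranges were 0.00 (6484 genes) and -0.09 (3937 genes), a smaller gap. In 4 week MAC-1+ minus 4 week MAC-1- the low and high classes of subunit genes had medians of -0.82 and -0.65, so both were negative, and in 4 week MAC-1+ minus SS MAC-1- they had -0.40 and -0.95. With an offset for length and GC content the medians of the 37 subunit genes were -0.04, -0.57 and -0.55 in these 3 comparisons. Over all genes the gap was wider in some other comparisons. In 4 week MAC-1 low minus SS MAC-1 low HSCs the low and high classes had medians of 0.18 and -0.33 over all genes. The subunit genes there had 0.23 and -0.49. In SS MAC-1 low minus SS MAC-1- HSCs the medians were -0.11 and 0.19 over all genes and -0.18 and -0.18 over subunit genes. Whether GC content as such had a part in the levels was not tested.

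**Figure D5:**
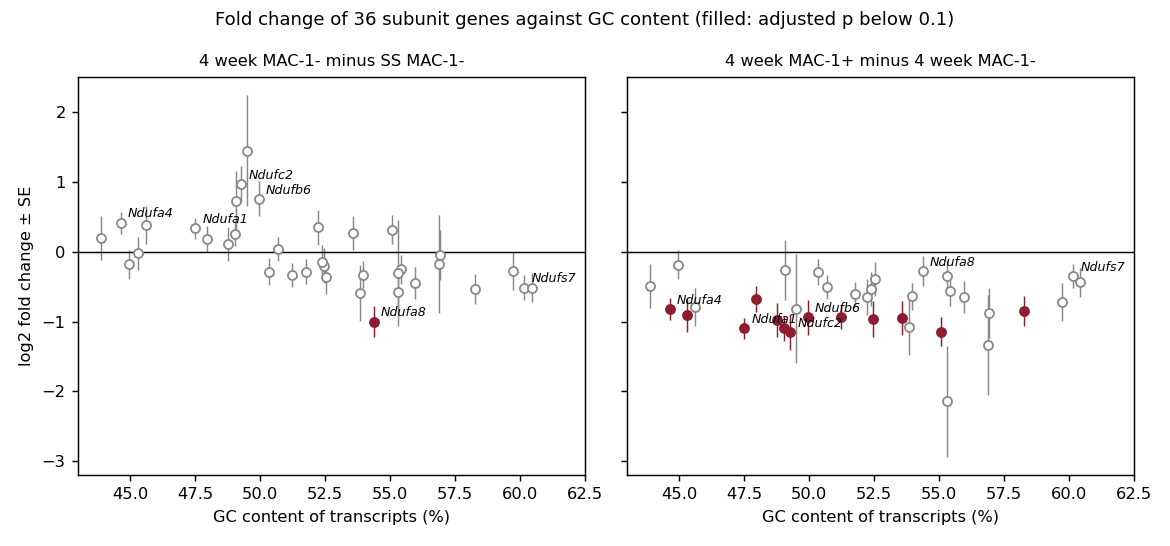
Log2 fold change ± SE of 36 subunit genes against the GC content of their transcripts in percent, for 4 week MAC-1- minus SS MAC-1- (left) and 4 week MAC-1+ minus 4 week MAC-1- (right), with filled points at an adjusted p below 0.1. On the left 10 of the 12 genes of lowest GC content lie above 0 and 11 of the 12 drawn from the class of highest GC content below it, and on the right all 36 lie below 0.

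Within SS HSCs no member was called between MAC-1 low and MAC-1- by edgeR, where 0.0146% of all genes were called. The median log2 fold change of the subunit genes was -0.20, compared with 0.00 over all genes, and 5 members had an unadjusted p below 0.05, all lower in MAC-1 low (4.26% of all genes were). DESeq2 called 2 members (of 737 genes called among 13154) and limma-voom 0 members and 0 genes in all. The 2 DESeq2 calls are therefore no more than its background. *Ndufv2* was at 1338, 1278 and 988 CPM in MAC-1- and 689.9, 562 and 868 CPM in MAC-1 low HSCs (log2 fold change -0.77 ± 0.24, adjusted p = 0.476). *Ndufaf2* was at 205, 167 and 148 and 84.0, 71.4 and 111 CPM (log2 fold change -0.96 ± 0.31, adjusted p = 0.49), and *Ndufa1* had log2 fold change -0.45 ± 0.15, adjusted p = 0.495. In each of the 3 the samples did not overlap. The same populations were also separated in proliferation markers (892 to 1025 CPM in MAC-1- and 1319 to 2031 CPM in MAC-1 low), in neutrophil markers (79.4 to 111 and 131 to 168 CPM), with no gene of either list called, and in the mitochondrial share of counts (6.70% to 7.08% and 3.96% to 6.24%). The part of these was not tested. The difference between MAC-1 low and MAC-1- was compared between 4 week and SS HSCs by an interaction term. No member passed by edgeR, DESeq2 or limma-voom, against 0.0586% of all genes by edgeR, and 2 had an unadjusted p below 0.05 (8.73% of all genes did), *Ndufb2* (log2 fold change -0.64 ± 0.25, adjusted p = 0.484) and *Ndufc2* (log2 fold change -0.75 ± 0.34, adjusted p = 0.556). The median interaction of the subunit genes was -0.11, and no difference between 4 week and SS HSCs in the step from MAC-1- to MAC-1 low was shown for any member. *Ndufa4* followed with log2 fold change -0.41 ± 0.22, adjusted p = 0.628.

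Between MAC-1 low HSCs of 4 week and SS marrow no member was called by edgeR, against 0.0439% of all genes, and 11 had an unadjusted p below 0.05, all lower at 4 weeks (3.51% of all genes were). DESeq2 called 2 members (of 518 genes called among 12908) and limma-voom 0 (of 24). *Ndufs7* was at 300.1, 379.6 and 299.7 CPM in SS MAC-1 low and 179, 243, 217 and 194 CPM in 4 week MAC-1 low HSCs (log2 fold change -0.65 ± 0.16, adjusted p = 0.279). *Ndufa11* (log2 fold change -0.67 ± 0.20, adjusted p = 0.381) and *Ndufb10* (log2 fold change -0.64 ± 0.21, adjusted p = 0.421) were next, and none of the 3 overlapped. The median of the subunit genes was -0.27, compared with -0.02 over all genes and -0.015 for the subunit genes with the offset for length and GC content. Replicate 1 of 4 week MAC-1 low had the lowest subunit sum of its population (13941 CPM) and the second highest mitochondrial share of all 16 libraries. That share was 3.96% to 6.24% in SS and 6.56% to 9.55% in 4 week MAC-1 low HSCs, without overlap, and its part was not tested.

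Other genes of the pathway came in lists of 6 to 10 tested genes, and since 0% to 3.25% of all genes were called in a comparison, 0 or 1 calls in such a list lie near the background. Of the 7 complex I subunits encoded in mitochondrial DNA, which form the proton-pumping core of the membrane arm, *mt-Nd4l* did not pass the filter and the other 6 were called in 0 of the 8 comparisons. In MAC-1+ minus MAC-1- HSCs of the 4 week marrow their median log2 fold change was 0.23 with estimates from -0.38 to 0.72, and 2 had an unadjusted p below 0.05, both higher in MAC-1+ (6.3% of all genes were). *mt-Nd2* was at 3789, 2343 and 2555 CPM in MAC-1- and 5539, 4842 and 3891 CPM in MAC-1+ HSCs (log2 fold change 0.72 ± 0.27, adjusted p = 0.25). *mt-Nd6*, the one subunit encoded on the other strand of mitochondrial DNA, was at 1022, 695 and 845 and 1026, 1638 and 1208 CPM (log2 fold change 0.60 ± 0.21, adjusted p = 0.219). Neither overlapped. In 4 week MAC-1+ minus SS MAC-1- HSCs the median of the 6 was 0.02. In SS MAC-1 low minus SS MAC-1- HSCs it was -0.54, with all 6 negative and 4 at an unadjusted p below 0.05 (4.26% of all genes were lower by that measure), and the median interaction was 0.62. Of 10 assembly factors without the Nduf name (*Ecsit*, *Acad9*, *Tmem126b*, *Timmdc1*, *Nubpl*, *Foxred1*, *Tmem186*, *Tmem70*, *Lyrm2* and *Sfxn4*) 1 was called in 1 comparison. *Sfxn4*, an inner-membrane protein needed for complex I assembly, was higher in 4 week MAC-1+ (9.02, 24.9 and 54.4 CPM) than in 4 week MAC-1- HSCs (0, 0.227 and 0.725 CPM; log2 fold change 6.51 ± 1.68, adjusted p = 0.0653). In SS MAC-1- HSCs it was at 68.4, 2.10 and 19.5 CPM, so that the low level was that of 4 week MAC-1- HSCs, where it was at or near the detection floor and the fitted fold depends on the prior count. None of 7 regulators of respiratory genes (*Nrf1*, *Gabpa*, *Esrra*, *Ppargc1a*, *Ppargc1b*, *Tfam* and *Yy1*) was called in any of the 8 comparisons. Among them *Tfam*, which packs mitochondrial DNA and takes part in its transcription, did not pass between MAC-1+ and MAC-1- HSCs of the 4 week marrow (log2 fold change -0.29 ± 0.40, adjusted p = 0.867). There *Ppargc1a* (6.78 ± 3.00), *Ppargc1b* (-5.95 ± 2.88) and *Esrra* (-2.96 ± 2.27) had samples at or near the floor, so that even large differences were not detectable. In SS MAC-1 low against SS MAC-1- HSCs 3 of the 7 were higher at an unadjusted p below 0.05 and 0 lower, against 696 and 582 of all 13661 genes.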

How the data were processed

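Bulk RNA of sorted HSC populations was amplified with the SMART-Seq v4 kit, which copies polyadenylated RNA without marking strand, and sequenced. Reads were aligned by the authors with STAR inside the nf-core pipeline for RNA-seq, and they deposited 1 table of raw counts per gene for 16 samples. How genes were counted, and on which genome build and annotation, is not given in the sources used here. Columns were matched to samples by name, and 0 columns of other samples were used or left over. Gene coordinates, lengths and GC content were taken from GENCODE M21 (GRCm38), which held 98.0% of the gene identifiers.

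Genes with low counts were removed with filterByExpr, and 13661 genes were fitted over all 16 samples in one model with edgeR 4.0.16 (TMM scaling, robust quasi-likelihood test, two-sided, R 4.3.3). The p-values were adjusted by the method of Benjamini and Hochberg over all genes, and a gene was called at an adjusted p below 0.1. The study used DESeq2 and asked in addition for a log2 fold change above 1, and counts under that stricter rule are given as an alternative. The common biological coefficient of variation was 1.13. There were 8 comparisons, which share populations. CPM values use TMM-scaled library sizes. DESeq2 1.42.0, limma 3.58.1 (voom with sample weights), other scalings, filters, covariates and fits without single samples were run as alternatives. The fit without replicate 1 of each 4 week population and the stricter rule were chosen after seeing the data. Scripts were tested on simulated data.

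The members and gene lists were chosen with earlier results of these data known. The text names all called members, the core subunits, all assembly factors, the 3 members of smallest p per comparison, the 3 highest and 3 lowest subunits per length (1 core subunit that these rules name is not reported here), *Ndufa4*, *Ndufa4l2*, *Ndufab1*, *Ndufa13*, and *Itgam* as a check of the sort. *Sfxn4*, *mt-Nd2*, *mt-Nd6*, *Tfam*, *Ppargc1a*, *Ppargc1b* and *Esrra* were singled out from their lists after their values were seen. Replicates of a population differed beyond counting noise in all 18 pairs, so none was counted once with another.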

Additional observations from a re-analysis of the deposited data

Results flagged for a closer look

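In the 1 population of 4 samples, 4 week MAC-1 low, each of the 44 tested members was checked for a sample far from the others by Dixon's ratio of gap to range, and chance alone marks about 1 in 20. There were 3. *Ndufb7*, a subunit of the distal membrane arm, was at 178.7 CPM in replicate 1 and at 312 to 331 CPM in the other samples. *Ndufc2* was at 780.3 CPM in replicate 1 and at 582 to 616 CPM in the others. *Ndufaf6*, an assembly factor, was at 68.5 CPM in replicate 3 and at 44.1 to 48.2 CPM in the others. Replicate 1 is the library with a mitochondrial share of 9.55%, and the part of that share in these values was not tested.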

How the results depend on the processing

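Among the called members and the 3 of smallest p per comparison, none changed direction under any alternative run. Against 4 week MAC-1-, the 13 members called lower in 4 week MAC-1+ became 8 with the offset for length and GC content, 7 with a covariate for how many genes each library detected, 2 with the samples of both populations alone 6 at an adjusted p below 0.05 and 4 where a log2 fold change beyond 1 was also required (5 of 1112 genes with DESeq2), and 5 to 14 when 1 sample was left out. Against SS MAC-1-, the 17 became 9 without a filter, 6 with the offset (subunit median -0.55), 0 with the samples of both populations alone, 8 without replicate 1 of each 4 week population, 11 at an adjusted p below 0.05 and 7 with the fold requirement (8 of 1181 genes with DESeq2), and 10 to 18 when 1 sample was left out. Fitting 6 samples alone cut the calls over all genes as well, from 444 to 154 and from 323 to 19. The 1 call of 4 week against SS MAC-1- HSCs (0 to 1 without single samples) became 4 with DESeq2 (of 882 genes called among 12908) and 0 without a filter, with the offset, the covariate, both populations alone, the replicate block, without replicate 1 of each 4 week population, at an adjusted p below 0.05 or with the fold requirement. The subunit median there, -0.14, was 0.032 without replicate 1 of each 4 week population and -0.19 to 0.031 when 1 sample was left out. Where edgeR called 0, DESeq2 called 4 and limma-voom 7 in 4 week MAC-1 low against MAC-1-, and DESeq2 called 2 each in MAC-1+ against MAC-1 low, in SS MAC-1 low against MAC-1- and in MAC-1 low at 4 weeks against SS, where the subunit median was -0.015 with the offset. Over all genes DESeq2 called 410, 318, 737 and 518 in these comparisons, in that order. In 4 week MAC-1+ against MAC-1- HSCs DESeq2 and limma-voom also called more genes in all than edgeR, 1321 and 866 compared with 444. The replicate block, a term for the replicate number over all 16 samples, gave 11 instead of 13 calls and 14 instead of 17. It put SS and 4 week samples of the same number together, so it is not a valid check of pairing. Deviations from population means were correlated by -0.001 to 0.040 between same-numbered samples (12 pairs). Between differently numbered samples they were correlated by -0.026 to 0.023 (30 pairs). Whether the numbers pair samples cannot be told from values this small. The names of the count columns carry another numbering, which was not used in this check. The cause of these shifts was not tested. With 3 or 4 samples and a common coefficient of variation of 1.13, small differences of the less abundant members, among them most assembly factors, were not detectable.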
